A study of Homo sapiens with 4 samples.

Results

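Forkhead genes encode transcription factors named FOX plus a subfamily letter and a number, and the regions described here are those that the authors assigned to a gene whose symbol starts with FOX, a letter and a digit. The rule found 405 regions of 91107 in the authors' deposited table, beside 45 gene symbols of 17301. The regions carry H3K27ac, acetylation of histone H3 on a lysine of its tail that marks promoters and enhancers in use, profiled by chromatin immunoprecipitation and sequencing. The cells were A375, an established human melanoma line. 2 libraries came from cells kept for 48 hours in 1 mM octanoate, which is a fatty acid of medium chain length, and 2 from cells kept as long in isopropanol, its vehicle. Nothing in the labels says whether the libraries of a group came from separate cultures. The table gives 1 comparison of the 2 groups and does not name the numerator, so fold changes are called positive or negative and not gains or losses under octanoate. It holds no value per library, so the depth of the libraries is unknown, no spread between replicates can be shown, and every standard error (SE) is the one the authors' model gave. Each gene is the one the authors placed nearest, which does not show that the region acts on it, and coordinates are on hg38.

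All forkhead proteins share a winged-helix domain that reads variants of the DNA core GTAAACA. FOXA proteins are known as pioneer factors that open compacted chromatin, and FOXO proteins leave the nucleus when the insulin, PI3K and AKT pathway phosphorylates them, which ties their targets in metabolism, cell cycle arrest and cell death to nutrient signals. FOXM1 drives genes of mitosis, and FOXD3 maintains neural crest cells, from which melanocytes arise, and represses the melanocyte fate. Of the listed symbols, FOXL2NB is no forkhead gene but a neighbour of FOXL2, with 1 region. FOXD4, FOXD4L1, FOXD4L4, FOXD4L5 and FOXD4L6 are near-identical copies in duplicated sequence, and how reads were placed among the copies was not stated, so their 42 regions are uncertain.

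The lineage of the cells was checked on markers. In the authors' deposited table, regions lay over the starts of the melanocyte genes SOX10 (mean level 774), PMEL (269), MITF (98.4) and S100B (55.2), and of the dedifferentiation markers AXL (516), NGFR, EGFR and SOX9. No region lay over the starts of the melanocyte genes MLANA, TYR, TYRP1 and DCT. Of 4 epithelial markers 2 had such a region, KRT8 (261) and EPCAM (50.5), and of 6 markers of blood or endothelium, PTPRC, CD3E, SPI1, PECAM1 and CDH5 among them, 0 had one. Of 3 liver markers 1 had one, APOA1 (9.80). The named markers of blood and endothelium did have regions away from their starts. The highest levels there were 408 (PTPRC), 164 (PECAM1), 148 (CDH5), 44.2 (CD3E) and 21.4 (SPI1). These levels are means over the libraries in the authors' normalized units.

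Where a region overlaps a gene start, the promoter sequence shows what DNA lies under it. Promoters of 4 forkhead genes with such a region are shown as examples: FOXO1, with the smallest p-value of the start regions, FOXK1 and FOXK2 as a subfamily pair, and FOXN3, with the lowest fold change, though the intervals of all 4 start regions overlap. Each is the stretch of 250 bases before the start in RefSeq on GRCh38.p14, printed along the strand of the gene, at chr13:40666642-40666891 (minus) for FOXO1, chr7:4682045-4682294 (plus) for FOXK1, chr17:82519482-82519731 (plus) for FOXK2 and chr14:89619166-89619415 (minus) for FOXN3. Capitals mark GC boxes, spelled GGGCGG, and boxes of the letters CCAAT, on either strand.
FOXO1: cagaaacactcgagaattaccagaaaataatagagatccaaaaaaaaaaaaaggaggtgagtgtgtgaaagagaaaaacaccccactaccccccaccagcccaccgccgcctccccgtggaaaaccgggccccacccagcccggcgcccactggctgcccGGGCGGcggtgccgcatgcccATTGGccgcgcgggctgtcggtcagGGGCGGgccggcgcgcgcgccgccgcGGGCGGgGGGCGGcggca
FOXK1: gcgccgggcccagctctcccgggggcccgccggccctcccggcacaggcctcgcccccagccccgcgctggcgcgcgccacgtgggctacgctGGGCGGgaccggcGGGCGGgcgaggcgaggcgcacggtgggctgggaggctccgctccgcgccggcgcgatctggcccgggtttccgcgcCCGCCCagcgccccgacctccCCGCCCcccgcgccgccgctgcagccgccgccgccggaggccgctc
FOXK2: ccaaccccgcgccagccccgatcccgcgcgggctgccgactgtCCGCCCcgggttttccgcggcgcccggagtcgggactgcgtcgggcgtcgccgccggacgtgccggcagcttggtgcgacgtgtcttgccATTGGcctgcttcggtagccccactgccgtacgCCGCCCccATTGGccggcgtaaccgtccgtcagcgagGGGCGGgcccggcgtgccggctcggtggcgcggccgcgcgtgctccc
FOXN3: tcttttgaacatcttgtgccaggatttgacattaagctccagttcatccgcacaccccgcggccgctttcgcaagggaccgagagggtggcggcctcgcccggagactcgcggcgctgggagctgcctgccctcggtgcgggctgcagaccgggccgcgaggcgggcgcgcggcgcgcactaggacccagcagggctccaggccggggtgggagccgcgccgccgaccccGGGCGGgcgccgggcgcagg

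GC boxes numbered 4 in the FOXO1 stretch, 4 in FOXK1, 3 in FOXK2 and 1 in FOXN3, and the deposited start region of each gene covered its stretch whole. CCAAT boxes were found in FOXO1 (1) and FOXK2 (2). The forkhead core occurred in 0 of these 4. GC content was 85.6% in FOXK1, 77.2% in FOXK2, 73.6% in FOXN3 and 67.2% in FOXO1.

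RefSeq windows of this length were found for 34 of the 45 symbols. FOXA2, FOXC2, FOXF1, FOXL1, FOXM1 and FOXN2 were among those with none in the sequence table used here. With protein-coding forkhead genes that had no region added and with alternative starts counted, there were 52 windows of 41 genes, FOXL2NB among them. Deposited regions overlapped 27 of these windows (22 genes), with a median GC content of 73.6% and a median of 28 CpG dinucleotides per window. The other 25 windows had medians of 54.8% and 10, and all 21834 searched windows of protein-coding genes had 62.0% and 16. Windows on some chromosomes, that of FOXH1 among them, were left out before the search. A GC box lay in 77.8% of the overlapped and 44.0% of the other forkhead windows, against 53.8% of all. Windows of all genes were not split by overlap with a region, so these contrasts cannot be called particular to forkhead genes. The forkhead core lay in 1 of the 52 windows (1.92%), an internal start of FOXP1, and in 2.44% of all. All motifs were searched on both strands. CCAAT was found in 23.1% against 32.8%, the E-box CACGTG in 5.77% against 7.39%, the AP-1 site TGANTCA in 9.62% against 5.33% and the cAMP response element TGACGTCA in 1.92% against 1.99%. The direct repeat that PPAR reads, the nuclear receptors that fatty acids activate, lay in 0 of the 52 and in 3 of all windows. No 2 different motifs overlapped in the 4 stretches shown. These are matches of letters and not sites shown to be bound.

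Forkhead regions lay farther from their genes than regions of the whole table did, at a median distance of 86.9 kb against 37.6 kb. Regions of SOX genes (223 kb) and of nuclear receptors other than PPAR and RXR (123 kb) lay farther still. Those of HOX genes lay nearer (9.27 kb). Of the 405, 24 overlapped the start (5.93%, against 11.7% of all regions), 48 lay within 10 kb, 148 at 10 to 100 kb, 166 at 100 to 500 kb and 19 beyond 500 kb. The class of 100 to 500 kb held 41.0% of forkhead regions and 23.3% of all. By RefSeq gene spans, 110 forkhead regions overlapped the assigned gene, 8 another protein-coding gene, 112 a non-coding gene and 175 no gene. Widths were like those of the whole table, with medians of 943 and 908 bases, and so were levels, with medians of 12.6 and 12.3. FOXL1 had the most regions, 27, FOXO1 had 23, FOXK1 had 21 and FOXD4L6 had 20, and 6 genes had 1 region each.

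The authors computed an adjusted p-value for regions at a mean level above 18.4, which 167 forkhead regions beside 41 genes passed. The other 238 regions lay below it, with a median log2 fold change of 0.34 against 0.21 for all regions below it. Of the 238, 6 had an unadjusted p-value under 0.05. The share over all regions below it is not given here, so the count cannot be called high or low. The 238 include all regions of FOXD4L1, FOXD4L4, FOXJ1 and FOXL2NB. Values of tested regions are described from here on unless stated.

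1 forkhead region passed an adjusted p-value of 0.05, and it is positive. The background share of calls in the deposited comparison was 1.67% of tested regions, so 1 of 167 is no more than the table as a whole gives. The called region lay beside FOXN2, a forkhead factor related to the checkpoint gene FOXN3, at chr2:48106007-48116647, 198 kb from the FOXN2 start on the side of lower coordinates. In the authors' deposited table it had a mean level of 308 over 10.6 kb and a log2 fold change of 0.65 with an SE of 0.19 (unadjusted p = 0.000645, adjusted p-value 0.0442, from the authors' DESeq2 comparison). The interval of 95% around that fold change ran from 0.28 to 1.03, which includes the median of all tested regions, 0.32. With that median subtracted its adjusted p-value was 0.980, and adjusted over all distinct regions it was 0.109, so the call ended under both. How many calls of the whole table ended in the same way is not given here. The region overlaps the non-coding gene LOC105374593. The FOXN2 start region (mean level 168) had 0.39 ± 0.20 (SE) in the authors' deposited table, and the regions at 107 kb and 28.4 kb had 0.16 ± 0.28 and 0.40 ± 0.26.

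Fold changes of forkhead regions were positive for the most part, as those of the whole table were. Of 167 tested regions 150 were positive (89.8%), against 87.3% of all. The median log2 fold change was 0.40, with quartiles of 0.19 and 0.58, against 0.32 with quartiles of 0.15 and 0.50 over all tested regions. An unadjusted p-value under 0.05 was found for 41 forkhead regions beside 26 genes (24.6%), against 18.4% of all tested regions. Of these 41, 40 were positive and 1 was negative. Among all tested regions, 6711 had such a p-value, of which 6538 were positive (17.9% of all tested regions) and 173 negative (0.475%). Intervals of 95% lay wholly above the median of all tested regions for 3 forkhead regions (1.80%, background 2.60%), of which 2 were beside FOXF1 and 1 beside FOXN3. They lay wholly below it for 7 (4.19%, background 3.13%), beside FOXO1 (3), FOXD3 (2), FOXC1 and FOXI1. Neighbouring regions share a locus and are not replicates, so no test was made over the family.

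**Figure D1:**
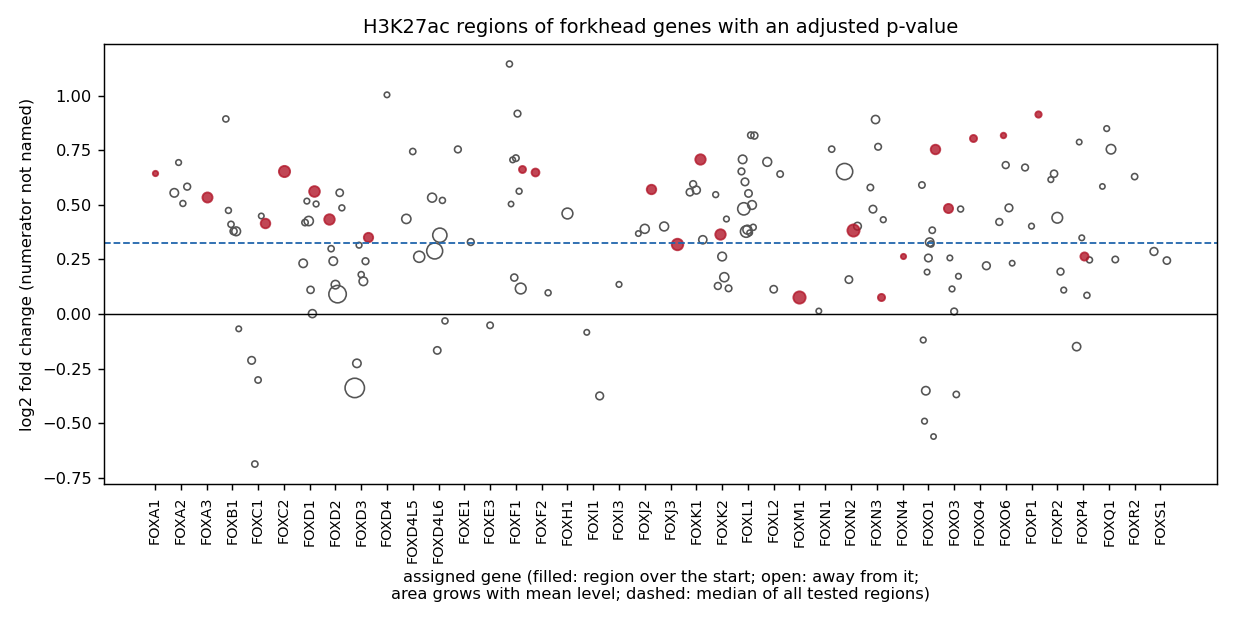
Log2 fold change (vertical axis) of 160 forkhead regions with an adjusted p-value, by assigned gene (horizontal axis, 40 genes). Filled points overlap the gene start that the authors used, open points do not, the area grows with the mean level and the dashed line is the median of all tested regions, 0.32. All filled points lie above 0 and all 17 negative points are open.

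Fold changes within the family were also read by position. All 23 tested start regions were positive, where 98.1% of all start regions were, and their median was 0.54, against 0.35 for all start regions. An unadjusted p-value under 0.05 was reached by 11 of the 23 (47.8%), all positive, against 19.2% of all regions at starts. None of the 11 passed adjustment, the lowest adjusted p-value being 0.0793 at FOXO1 in the authors' deposited table. Away from starts, 144 forkhead regions had a median of 0.39, against 0.31 for all such regions. There, 30 reached an unadjusted p-value under 0.05, of which 29 were positive (20.1%, background 17.5%). Of the 144, 17 had a negative fold change, as did 4441 of 26440 such regions in the whole table.

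**Figure D2:**
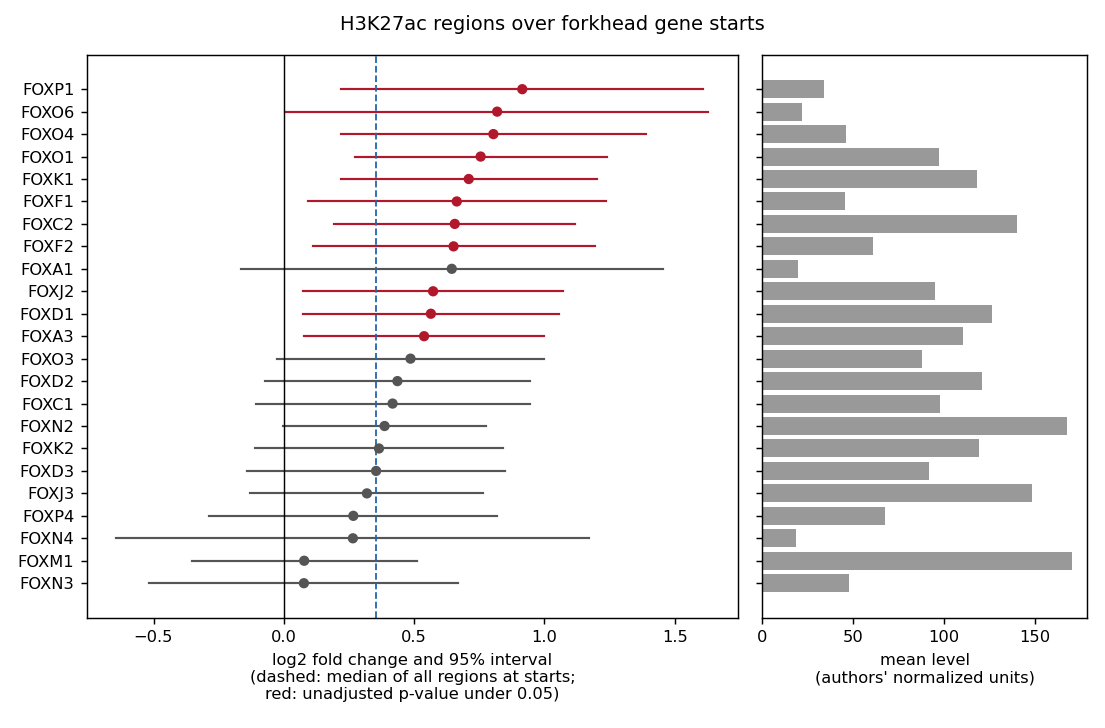
Left, log2 fold change with its 95% interval for the 23 tested regions over forkhead gene starts, in red where the unadjusted p-value is under 0.05, with the median of all start regions, 0.35, as a dashed line. Right, the mean level of each region in the authors' normalized units. Points run from 0.08 at FOXN3 to 0.91 at FOXP1, all intervals overlap each other, and FOXM1 has the highest level with one of the 2 lowest fold changes.

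Per length, the start regions with most H3K27ac in the authors' deposited table were those of FOXK1 (33.8 units per kb of region), FOXM1 (33.7) and FOXJ3 (32.3). FOXO1 (18.1), FOXO4 (17.4), FOXO6 (15.2), FOXP1 (14.1) and FOXA1 (12.1) stood near the bottom of that order, above FOXI3 (11.8) and FOXN4 (11.2). The FOXI3 start region, of 0.337 kb and a mean level of 3.98, was the only start region without an adjusted p-value.

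FOXO genes were positive at all 4 starts, while 5 of their 21 tested regions elsewhere were negative, 4 beside FOXO1 and 1 beside FOXO3. In the whole table, 98.1% of start regions were positive, and 4441 of 26440 tested regions away from starts were negative. FOXO1, the FOXO factor best known for insulin responses, had at its start (chr13:40662580-40667943) a mean level of 97.3 and a log2 fold change of 0.76 ± 0.25 (SE) in the authors' deposited table, a ratio of 1.69. The start region of FOXO4 (chrX:71094959-71097626) had a level of 46.3 and 0.80 ± 0.30 there, that of FOXO6 (chr1:41360778-41362242) 22.3 and 0.82 ± 0.41, and that of FOXO3 (chr6:108557224-108561433), a factor tied to stress resistance, 88.1 and 0.49 ± 0.26. Unadjusted p-values in the authors' deposited table were 0.00218 for FOXO1, 0.00717 for FOXO4, 0.0478 for FOXO6 and 0.0627 for FOXO3.

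Away from the start, FOXO1 had 10 tested regions, all beyond its far end, of which 4 were negative. In the authors' deposited table the negative ones had -0.56 ± 0.38 (SE) at 118 kb, -0.35 ± 0.27 at 286 kb, -0.49 ± 0.38 at 295 kb and -0.12 ± 0.37 at 475 kb from the start. None reached an unadjusted p-value of 0.05. The 95% intervals of the first 3 lay below the median of all tested regions. They ended at 0.19, 0.17 and 0.25, below the interval of the FOXO1 start, which began at 0.27, and the difference itself was not tested. The regions at 286 and 295 kb lie in LINC00598, a non-coding gene. FOXO3 had 1 negative region, inside the gene at 95.6 kb from the start (-0.37 ± 0.36 in the authors' deposited table), while its other 6 tested regions ran from 0.01 to 0.49. All 5 tested FOXO6 regions were positive, from 0.23 to 0.82, and one 3.81 kb past the start had 0.68 ± 0.34 (unadjusted p = 0.0421, authors' deposited table).

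FOXK1 and FOXK2, repressors that respond to insulin and mTOR signalling and regulate glycolysis and autophagy, differed in their values but not beyond their errors. The FOXK1 start (chr7:4681650-4685149) had a level of 118 and a log2 fold change of 0.71 ± 0.25 (SE, p-value 0.00459, adjusted 0.112), and the FOXK2 start (chr17:82518722-82523240) 119 and 0.37 ± 0.24 in the authors' deposited table. The FOXK1 interval begins at 0.22 and the FOXK2 one ends at 0.84, so they overlap widely. Beside FOXK1, 2 regions upstream at 39.2 and 48.0 kb also reached an unadjusted p-value under 0.05, with 0.57 ± 0.27 and 0.60 ± 0.29 in the authors' deposited table. All 5 tested FOXK1 regions (median 0.57) and all 7 of FOXK2 (median 0.26) were positive, as were 87.3% of all tested regions.

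The pioneer factor genes FOXA1, FOXA2 and FOXA3 had 6 tested regions, all positive (87.3% of all tested regions were), from 0.51 to 0.69. FOXA3 had 1 region, over its start (level 110, 0.54 ± 0.23 (SE), unadjusted p-value 0.0217 in the authors' deposited table), and that region is also listed with SYMPK, the gene on its other side. The FOXA1 start had a low level of 19.8 and 0.64 ± 0.41 in the authors' deposited table. No region lay over the FOXA2 start. Its 4 tested regions formed a group 176 to 209 kb away, with fold changes of 0.51 to 0.69 in the authors' deposited table, of which the nearest (level 72.0, 0.56 ± 0.27) had an unadjusted p of 0.0432.

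Among genes with roles in the neural crest and its surroundings, FOXD3 had beside it the region with the highest mean level of the family. It spans 23.9 kb at chr1:63107713-63131609, 191 kb from the FOXD3 start on the side of lower coordinates, with a mean level of 445 in the authors' deposited table. 0.0615% of all regions were wider and 0.259% had a higher level. Per kb of region its level was 18.6, against 25.8 at the FOXD3 start. The authors' deposited table gives it a log2 fold change of -0.34 ± 0.19 (SE, unadjusted p = 0.0688), with an interval of -0.70 to 0.03 that lies below the median of all tested regions. The region next to it had -0.23 ± 0.25, and the FOXD3 start (level 92.1) 0.35 ± 0.25 in the authors' deposited table. The 7 tested FOXD3 regions ran from -0.34 to 0.35, the median being 0.18.

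FOXD2 had the region with the second highest mean level, 356 over 12.3 kb (28.9 per kb), at 138 kb from its start. The authors' deposited table gives that region 0.09 ± 0.21 (SE), and 0.44 ± 0.26 at the start. FOXD1, a gene of kidney stroma and retina, had 8 tested regions from 0.00 to 0.56, with the highest at its start (level 127, unadjusted p-value 0.0240 in the authors' deposited table). Near the FOXD4 copies, the region with the highest level (296, or 50.7 per kb) lay 133 kb from FOXD4L6. It had 0.29 ± 0.20 in the authors' deposited table. The 10 tested regions beside FOXD4 and its copies had a median of 0.40, and 2 were negative. Unadjusted p-values under 0.05 belonged to regions at 2.67 kb from FOXD4 (1.00 ± 0.42), 100 kb from FOXD4L5 (0.74 ± 0.36) and 379 kb from FOXD4L6 (0.53 ± 0.24) in the authors' deposited table.

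**Figure D3:**
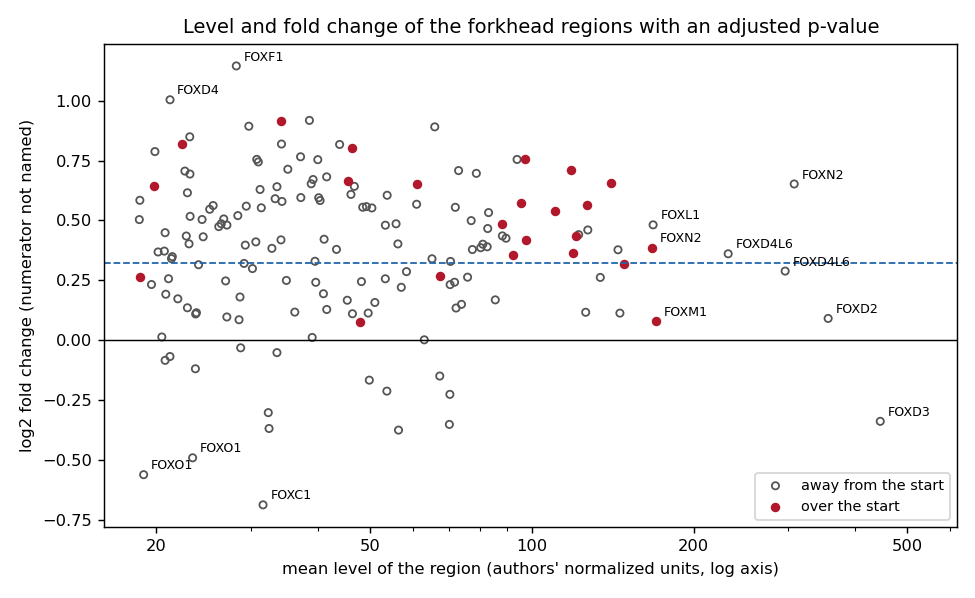
Mean level of each tested forkhead region (horizontal log axis, authors' normalized units) against its log2 fold change (vertical axis), filled in red over gene starts. The dashed line is the median of all tested regions. The region with the highest level, beside FOXD3, has a fold change of -0.34, and the only called region, beside FOXN2, has 0.65.

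FOXF1, FOXC2 and FOXL1, genes of mesoderm, vessels and gut mesenchyme, lie side by side on chromosome 16, and every tested region there was positive. The 47 regions assigned to them span 725 kb, with 1 region of another gene, MTHFSD, among them. Of the 22 tested, 22 were positive, where 87.3% of all tested regions were. They ran from 0.12 to 1.15, with a median of 0.58, and 11 (50%) reached an unadjusted p-value under 0.05, against 18.4% of all tested regions. Regions of 1 locus are not independent, and the share was not tested. None passed adjustment. The largest fold change of the family lay here, 1.15 ± 0.35 (SE) at chr16:86222250-86224082, 286 kb before the FOXF1 start, with a level of 28.2 (authors' deposited table, DESeq2 p-value 0.00112, adjusted 0.0563). Regions at 122 and 125 kb before FOXF1 had 0.92 ± 0.30 and 0.71 ± 0.33, and the starts of FOXF1 (level 45.5) and FOXC2 (level 140) had 0.66 ± 0.29 and 0.66 ± 0.24 in the authors' deposited table.

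FOXL1 had no region over its start but 12 tested ones around it, from 0.37 to 0.82. Of these, 6 reached an unadjusted p-value under 0.05, against 18.4% of all tested regions, and they are among those already counted for the neighbourhood. In the authors' deposited table these 6 were 0.65 ± 0.32 (SE) at 1.28 kb, 0.71 ± 0.24 at 51.4 kb, 0.48 ± 0.20 at 83.5 kb, 0.61 ± 0.27 at 97.1 kb, 0.82 ± 0.34 at 182 kb and 0.82 ± 0.29 at 363 kb. The one at 83.5 kb had the highest level of the neighbourhood (168), and the one at 363 kb was the farthest tested. With the 3 genes left out, the family median was 0.38.

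**Figure D4:**
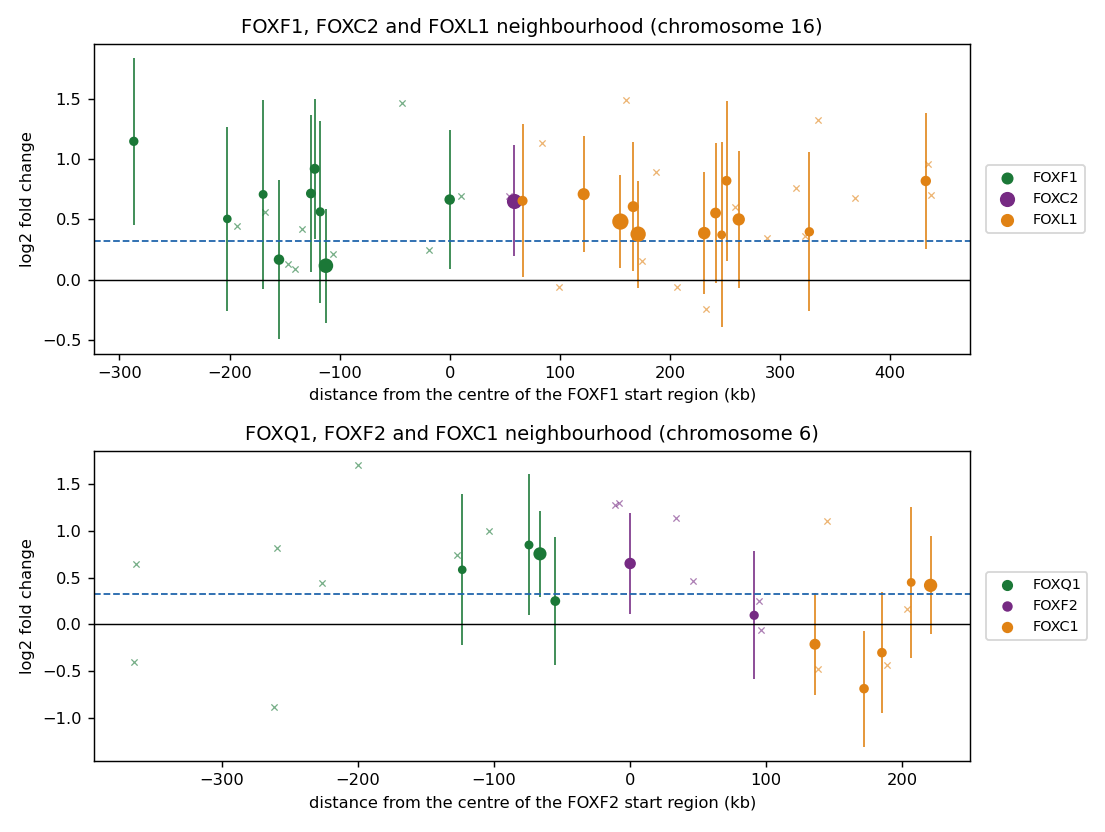
Log2 fold change of the regions of the neighbourhoods on chromosome 16 (top) and chromosome 6 (bottom) by distance in kb from the centre of the FOXF1 or FOXF2 start region. Circles with 95% intervals are tested regions, their area growing with the mean level, crosses are untested ones, and the dashed line is the median of all tested regions. All circles at the top lie above 0, while at the bottom 3 FOXC1 circles lie below it.

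A second neighbourhood, FOXQ1, FOXF2 and FOXC1 on chromosome 6, was mixed. Its 11 tested regions over 588 kb ran from -0.69 to 0.85, and 3 were negative. Beside FOXQ1, which has been tied to epithelial to mesenchymal transition, a region of 6.96 kb at 8.60 kb past the start (chr6:1321043-1328008, level 93.9) had 0.75 ± 0.23 (SE, authors' deposited table, DESeq2 p-value 0.00127, adjusted 0.0604). It lies in the non-coding gene FOXF2-DT. A smaller FOXQ1 region at 3.50 kb had 0.85 ± 0.38 (unadjusted p = 0.0273, authors' deposited table). The FOXF2 start had 0.65 ± 0.28 (level 61.1, unadjusted p-value 0.0183 in the authors' deposited table).

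FOXC1, needed for eye and vessel development, had the only negative forkhead region with an unadjusted p-value under 0.05. It lies at chr6:1561306-1563927, 46.0 kb before the start, with a level of 31.6 and a log2 fold change of -0.69 ± 0.32 (SE, p-value 0.0300, adjusted 0.227) in the authors' deposited table. Regions on either side at 33.5 and 81.7 kb had -0.30 ± 0.33 and -0.21 ± 0.28 in the authors' deposited table. Nearer to the gene, the region at 11965 bases had 0.45 ± 0.41 and the start 0.42 ± 0.27 in the authors' deposited table, with intervals that overlap those of the negative regions.

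FOXM1, the mitotic regulator, had 1 region, over its start and shared with RHNO1, with the highest level of any forkhead start (171) and a log2 fold change of 0.08 ± 0.22 (SE) in the authors' deposited table. The FOXN3 start (level 47.9) had 0.08 ± 0.30 there, and regions inside the gene had higher values. The one at 108 kb (chr14:89505901-89511078, level 66.0) had 0.89 ± 0.27 (authors' deposited table, DESeq2 p-value 0.000957, adjusted 0.0530), the second smallest p-value of the family. The interval of this region, 0.36 to 1.42, overlaps that of the start, -0.52 to 0.67. Another at 77.2 kb had 0.77 ± 0.33 in the authors' deposited table. FOXN1, the thymus regulator, had 1 of 2 tested regions with an unadjusted p-value under 0.05 (0.76 ± 0.34), and the single FOXN4 region, over its start, had 0.27 ± 0.46 in the authors' deposited table.

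FOXP1, FOXP2 and FOXP4, which act in lymphocytes, lung and brain, had 14 tested regions, 13 of them positive (87.3% of all tested regions were). The FOXP1 start (chr3:71582704-71585125, level 34.2) had the largest fold change of any tested start, 0.91 ± 0.35 (SE, p-value 0.00988, adjusted 0.155), and a region inside the gene, 600 kb from the start, had 0.67 ± 0.30 in the authors' deposited table. Beside FOXP2, a region 258 bases from the listed start had 0.64 ± 0.30 (unadjusted p = 0.0307, authors' deposited table). The FOXP2 region with the highest level, inside the gene at 297 kb, had a level of 122 and 0.44 ± 0.24. FOXP4 had 0.27 ± 0.28 at its start and the only negative FOXP region (-0.15 ± 0.28 at 101 kb) in the authors' deposited table.

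FOXJ2 and FOXJ3, broadly expressed, both had a start region, with 0.57 ± 0.25 (SE, level 95.4, unadjusted p-value 0.0246) and 0.32 ± 0.23 (level 149) in the authors' deposited table. FOXJ1, the master gene of motile cilia, had 2 regions with levels of 12.8 and 13.9, both under the filter. FOXH1, a partner of SMAD proteins in Nodal signalling, had 1 region 384 bases from its start, with a level of 127 and 0.46 ± 0.25 in the authors' deposited table. FOXL2, a gene of the ovary, had 3 tested regions, all positive (0.11 to 0.70), as were 87.3% of all tested regions. Unadjusted p-values under 0.05 belonged to 2 of them, 0.70 ± 0.27 (SE) at 30016 bases and 0.64 ± 0.32 at 10.5 kb, in the authors' deposited table.

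FOXB1 had 5 positive of 6 tested regions, where 87.3% of all tested regions were positive. The one 1.5 kb past its start had 0.89 ± 0.36 (SE, unadjusted p = 0.0141, authors' deposited table). The thyroid gene FOXE1 had a region at 49.0 kb with 0.75 ± 0.30, in the non-coding gene PTCSC2, in the authors' deposited table. Both tested FOXI1 regions (-0.38 ± 0.27 and -0.08 ± 0.41) and the single tested FOXE3 region (-0.05 ± 0.32) were negative in the authors' deposited table, none with an unadjusted p-value under 0.05. FOXI3, FOXR2 and FOXS1 together had 4 tested regions, from 0.14 to 0.63.

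Genes that control FOXO proteins, and genes that FOXO and FOXM1 are known to drive, were read from lists. Of 146 tested regions beside 22 genes of FOXO control, 2 were called (1.37%, against 1.67% of all tested regions), both positive and beside STK4, a kinase that phosphorylates FOXO proteins (the smaller p-value belonging to 0.81 ± 0.22 (SE), adjusted 0.0288, in the authors' deposited table). The median of the list was 0.26, against 0.32 for all tested regions, and 15 of its regions (10.3%, all positive) had an unadjusted p-value under 0.05, against 18.4% of all, so both lay below the whole table. Of 123 tested regions beside 24 FOXO targets, 3 were called (2.44%, against 1.67%), all positive, and 20 (16.3%, against 18.4%) had an unadjusted p-value under 0.05. In the authors' deposited table, 1 of 2 tested regions of BBC3, an apoptosis gene, was called, lying 10.6 kb from the start with 1.08 ± 0.29 (SE, adjusted 0.0262), while its start had 0.41 ± 0.22 (adjusted 0.295). Of 21 tested KLF6 regions 1 was called in the authors' deposited table, at 42.4 kb with 1.08 ± 0.28 (adjusted 0.0197), while the start had 0.38 ± 0.22 (adjusted 0.326). Of 2 tested regions of MXI1, an antagonist of MYC, 1 was called in the authors' deposited table, next to the start with 0.87 ± 0.24 (adjusted 0.0300). The median of this list was 0.35, against 0.32 for all tested regions, and IRS2 and INSR belong to both lists. PDK4, a kinase that restrains pyruvate use, had 0.83 ± 0.27 at its start (adjusted p = 0.0742, authors' deposited table).

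Of 34 tested regions beside 20 targets of FOXM1, 4 were called (11.8%, against 1.67% of all tested regions), all positive and all beside 1 gene, NEK2, a centrosome kinase, the largest having 1.33 ± 0.23 (SE, adjusted p-value 4.01e-05) at 34.6 kb from the start in the authors' deposited table. The 20 start regions of this list had a median of 0.24, against 0.35 for all start regions, and 0 of them reached an unadjusted p-value under 0.05, against 19.2% of all. SKP2 stands in this list and among the FOXO control genes.

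Other families of developmental regulators were set beside the forkhead genes. Medians of tested regions were 0.30 for 45 regions of HOX genes, 0.30 for 100 of SOX genes and 0.28 for 164 of nuclear receptors other than PPAR and RXR, against 0.40 for the forkhead genes. Start regions had medians of 0.36, 0.31, 0.38 and 0.54 in the same order. Unadjusted p-values under 0.05 made up 20%, 19%, 17.1% and 24.6%, against 18.4% of all tested regions. Calls numbered 1 (2.22%), 0, 3 (1.83%) and 1 (0.599%), against 1.67%. The differences between families were not tested, because the table holds no value per library and regions are not replicates.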

How the data were processed

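The authors deposited their own comparison of the groups, and its columns are named as DESeq2 names them, per the file headers. Bowtie2, MACS2, featureCounts, DESeq2 and bedtools 2.29.1 are among the tools, and hg38 is the genome build, per the submitters' processing notes, which give no roles or parameters. The mean level is a signal normalized by the authors, and its scaling is not given in the sources used here. Fold changes and standard errors are the authors' values on the log2 scale, per the file headers. The score in the deposited table is the ratio of fold change to standard error. Deposited p-values are two-sided normal values of that score, and the authors' adjusted ones equal Benjamini-Hochberg values over the 36436 regions at or above a mean level of 18.4. Elsewhere the table holds 1, read as not computed. Columns holding values of single libraries numbered 0.

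Lines repeating a region for another gene were merged (91107 regions on 95312 lines). Regions at distance 0 were taken to overlap a gene start, and a region with an adjusted p-value is called tested. A region counted as away from the start may overlap an alternative RefSeq start, as happens inside FOXO3 and FOXP2. Intervals of 95% are normal ones from the authors' standard errors. In centring, the median of tested regions was subtracted and p-values were recomputed. Python 3.11.15, pandas 2.3.3 and scipy 1.17.1 were used. The adjustment and centring were tested on simulated data. RefSeq sequences and gene spans are of GRCh38.p14, the reference of which hg38 is another name, and in 2667 of 2667 overlapping windows on opposite strands the sequences were reverse complements. The test across libraries planned for tables with counts could not be run.

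The members and lists were chosen with earlier results of these data known. Values were given for every called region, for tested regions with an unadjusted p-value under 0.05, for start regions, for the 10 genes with most regions and for the 5 lowest fold changes. The values of some genes that this rule or the marker lists name are not reported here, though they enter the counts and medians. Other regions named, as examples beside these, were chosen after their values were seen.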

Additional observations from a re-analysis of the deposited data

How the results depend on the processing

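The count of 1 called forkhead region became 0 at an adjusted p-value under 0.01, when a fold change of 1 or more in log2 size was also asked, within 100 kb of the gene start, with adjustment over all distinct regions, with adjustment over all lines and with centring, while 41 regions had an unadjusted p-value under 0.05. The median of 0.40 was 0.48 with 1 region per gene, that of the highest level. It lay between 0.38 and 0.42 in the other filters and ran from 0.40 without FOXF1 to 0.42 without FOXD3 across the 41 leave-one-out settings. The share of positive regions, 89.8%, was 77.0% with no filter on level, 95.2% at a level of at least 100 and 62.3% after centring. Centring subtracts the median of all tested regions, so 18218 of all 36436 are positive after it by construction, against 104 of 167 here. Shares over all regions without the filter and at a level of at least 100 are not given here. These shifts can therefore not be called particular to the family. The cause of these shifts was not tested. The 1 call lost under centring and under adjustment over all distinct regions was that of FOXN2. Leaving out the FOXD4 copies, the 3 genes on chromosome 16 or FOXL2NB was added after seeing the data. No paired analysis was possible because only the authors' comparison of the groups was given, with no library in it, and leaving out single libraries was not run for the same reason.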
